A study of Mus musculus with 32 samples.

Results

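The genes described here are 10 genes of the cellular response to low oxygen: *Hif1a*, *Epas1*, *Arnt*, *Egln1*, *Egln3*, *Bnip3*, *Car9*, *Ankrd37*, *Adm*, and *Ndrg1*. They were taken by symbol from the 22850 genes of the deposited expression table, and each symbol stood on 1 row. In mm9 the α subunit genes *Hif1a* and *Epas1* lie at chr12:75002362-75048517 and chr17:87153247-87232750, and *Arnt* at chr3:95238310-95301162. The hydroxylase genes *Egln1* and *Egln3* lie at chr8:127432496-127473154 and chr12:55279968-55304847. The remaining genes are *Bnip3* (chr7:146082519-146101202), *Car9* (chr4:43519838-43526601), *Ankrd37* (chr8:47082256-47085221), *Adm* (chr7:117771175-117773331), and *Ndrg1* (chr15:66760883-66801202). Their RNA was measured in 32 samples of 3 cell types (β cells, endothelial cells or ECs, and macrophages or MΦs) that were sorted out of the islets of adult mice with the transgenes MIP-GFP, RIP-rtTA, and TetO-VEGF-A, and the labels do not give the age of single groups. In this model the rat insulin promoter (RIP) drives rtTA in β cells, so that Dox in the drinking water switches on a human VEGF-A transgene there, and the mouse insulin promoter (MIP) marks β cells with GFP. All groups carried these transgenes, including the No Dox controls, and the other groups were collected after 1 week of Dox (1wk Dox) or 1 week after its removal (1wk WD). Sorting took GFP+ CD31- CD11b- cells as β cells, CD11b+ cells as MΦs, and CD31+ cells as ECs, from pooled islets. Each cell type had 4 No Dox samples. At 1wk Dox there were 5 of β cells, 1 of ECs, and 2 of MΦs, and at 1wk WD 3 of β cells, 5 of ECs, and 4 of MΦs. The study calls the samples of a group biological replicates, but the labels do not tie samples to mice, so p-values measure the spread between these samples.

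Cells sense oxygen through the hypoxia-inducible factors (HIFs). HIF-1α (*Hif1a*) and HIF-2α (*Epas1*) are made continuously, and when oxygen is plentiful the prolyl hydroxylases PHD2 (*Egln1*) and PHD3 (*Egln3*) mark them for destruction by the VHL ubiquitin ligase. When oxygen falls, the α subunits persist, pair with ARNT (*Arnt*), and switch on target genes, among them *Egln3* itself, the mitophagy receptor *Bnip3*, carbonic anhydrase IX (*Car9*), the ankyrin-repeat gene *Ankrd37*, the vasodilator peptide adrenomedullin (*Adm*), and the stress-response gene *Ndrg1*. Because HIF-α activity is set mainly at the level of protein, RNA values of *Hif1a* and *Epas1* report on the supply of message, whereas RNA of the targets lies downstream of the factor.

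HIF binds DNA at a short core that reads ACGTG or GCGTG on either strand. RefSeq promoter sequences (GRCm38.p6, 250 bases before the start of transcription) were at hand for 8 of the 10 genes, and not for *Epas1* or *Ndrg1*. ACGTG was found in 6 of the 8, those of *Hif1a*, *Egln1*, *Egln3*, *Bnip3*, *Car9*, and *Ankrd37*, and in 16.6% of all 32851 promoters. GCGTG was found in 5 of the 8, those of *Arnt*, *Egln1*, *Bnip3*, *Ankrd37*, and *Adm*, and in 28.2% of all promoters, while 38.6% of all promoters held at least 1 of the 2 cores. The 5 stretches below belong to genes whose RNA differed between the sorted cell types, and capitals mark the cores, which read CACGT or CACGC where they lie on the opposite strand. Each is written 5′ to 3′ along the strand of its gene: the whole 250 bases for *Bnip3* (chr7:138909507-138909756, minus strand) and *Ankrd37* (chr8:45999851-46000100, minus strand), and the bases around the core nearest the start for *Hif1a* (chr12:73907757-73907841, plus strand), *Car9* (chr4:43506968-43507025, plus strand), and *Adm* (chr7:110627563-110627647, plus strand).
Bnip3: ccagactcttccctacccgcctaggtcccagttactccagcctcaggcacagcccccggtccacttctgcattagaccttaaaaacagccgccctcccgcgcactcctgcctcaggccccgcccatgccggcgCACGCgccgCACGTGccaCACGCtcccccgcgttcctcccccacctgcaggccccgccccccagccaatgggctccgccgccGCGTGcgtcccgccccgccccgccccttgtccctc
Ankrd37: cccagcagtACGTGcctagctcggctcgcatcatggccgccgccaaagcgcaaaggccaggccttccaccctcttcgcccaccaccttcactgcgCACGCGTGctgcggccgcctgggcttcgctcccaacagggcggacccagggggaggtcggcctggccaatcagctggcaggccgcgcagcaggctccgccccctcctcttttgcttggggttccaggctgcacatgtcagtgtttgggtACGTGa
Hif1a: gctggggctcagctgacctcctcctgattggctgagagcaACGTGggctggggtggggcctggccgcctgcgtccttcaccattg
Car9: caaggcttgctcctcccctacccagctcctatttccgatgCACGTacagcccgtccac
Adm: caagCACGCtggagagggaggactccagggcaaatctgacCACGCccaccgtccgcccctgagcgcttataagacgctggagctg
*Bnip3* had 5 core matches and *Ankrd37* had 4, the highest numbers among the 8 genes. In *Bnip3*, 2 of the matches are the opposite strands of a single CACGTG, a palindrome that is also an E-box bound by other factors, and in *Ankrd37* a pair of GCGTG matches on opposite strands overlap. The core nearest the start lay 6 bases before it in *Ankrd37*, 18 bases in *Car9*, 35 bases in *Bnip3*, 54 bases in *Adm*, and 70 bases in *Hif1a*. These matches describe the sequence only, and binding was not measured.

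The values are scores, the normalized expression computed by the authors, given as whole numbers from 1 upward, so that a gene without signal is listed at 1. The scores of a sample summed to 23465985 to 53441769, but they are not reads, and the depth of each sample is unknown. Marker lists matched the labelled cell types: summed scores of 10 endothelial markers were 421682 to 676408 in ECs and at most 59018 elsewhere, and those of 10 macrophage markers were 321918 to 532672 in MΦs and at most 8450 elsewhere. Summed scores of 10 β cell markers were 513966 to 10941261 in β cell samples and at most 47759 elsewhere. The β cell samples also held 10 pericyte and stromal markers, such as *Pdgfrb* and *Rgs5*, whose sum was 1031 and 1125 in No Dox replicates 1 and 2, 153817 and 540417 in No Dox replicates 3 and 4, and 25966 to 505631 at 1wk Dox and 1wk WD. Summed scores of 10 acinar markers were 10277523 to 14152052 in No Dox β cell replicates 3 and 4, 1924863 in No Dox EC replicate 2, and 2182455 to 12715607 in No Dox MΦ replicates 2 and 4, against at most 816633 in the other samples. As the samples are bulk RNA, fewer cells of a type and less RNA per cell cannot be told apart.

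The first question was how the oxygen-sensing genes were distributed over the 3 cell types, dispersed and sorted from islets without Dox. In the limma fit of the 12 No Dox samples, a gene was called at a 2-fold difference and a Benjamini-Hochberg adjusted p under 0.05 over all 16380 genes tested. Between ECs and β cells, *Hif1a* and *Epas1* were higher and *Bnip3* and *Ankrd37* lower in ECs, where 17.1% of all genes were called higher and 20.9% lower. Between MΦs and β cells, *Car9* was higher and *Bnip3*, *Ankrd37*, and *Ndrg1* lower in MΦs, where 18.4% of all genes were called higher and 20.4% lower. Between ECs and MΦs, *Epas1*, *Adm*, and *Ndrg1* were higher and *Car9* lower in ECs, where 18% of all genes were called higher and 19.3% lower. Each comparison thus called 4 of the 10 genes, a share close to that among all genes. *Arnt*, *Egln1*, and *Egln3* were called in none of the 3. The median log2 difference of the 10 genes was 0.25 for ECs against β cells, -1.55 for MΦs against β cells, and 0.57 for ECs against MΦs, beside medians of -0.07, -0.12, and -0.01 over all genes. Summed scores of 10 dissociation and stress genes were 370781 to 510544 in No Dox MΦs. They were 93579 to 163460 in β cells and 112874 to 135763 in ECs. Of these 10, 9 were called higher in MΦs than in β cells (median 1.75) and 8 lower in ECs than in MΦs (median -1.50). Between ECs and β cells 1 was called, higher in ECs (median 0.34). Their part in the differences between cell types was not tested.

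**Figure D1:**
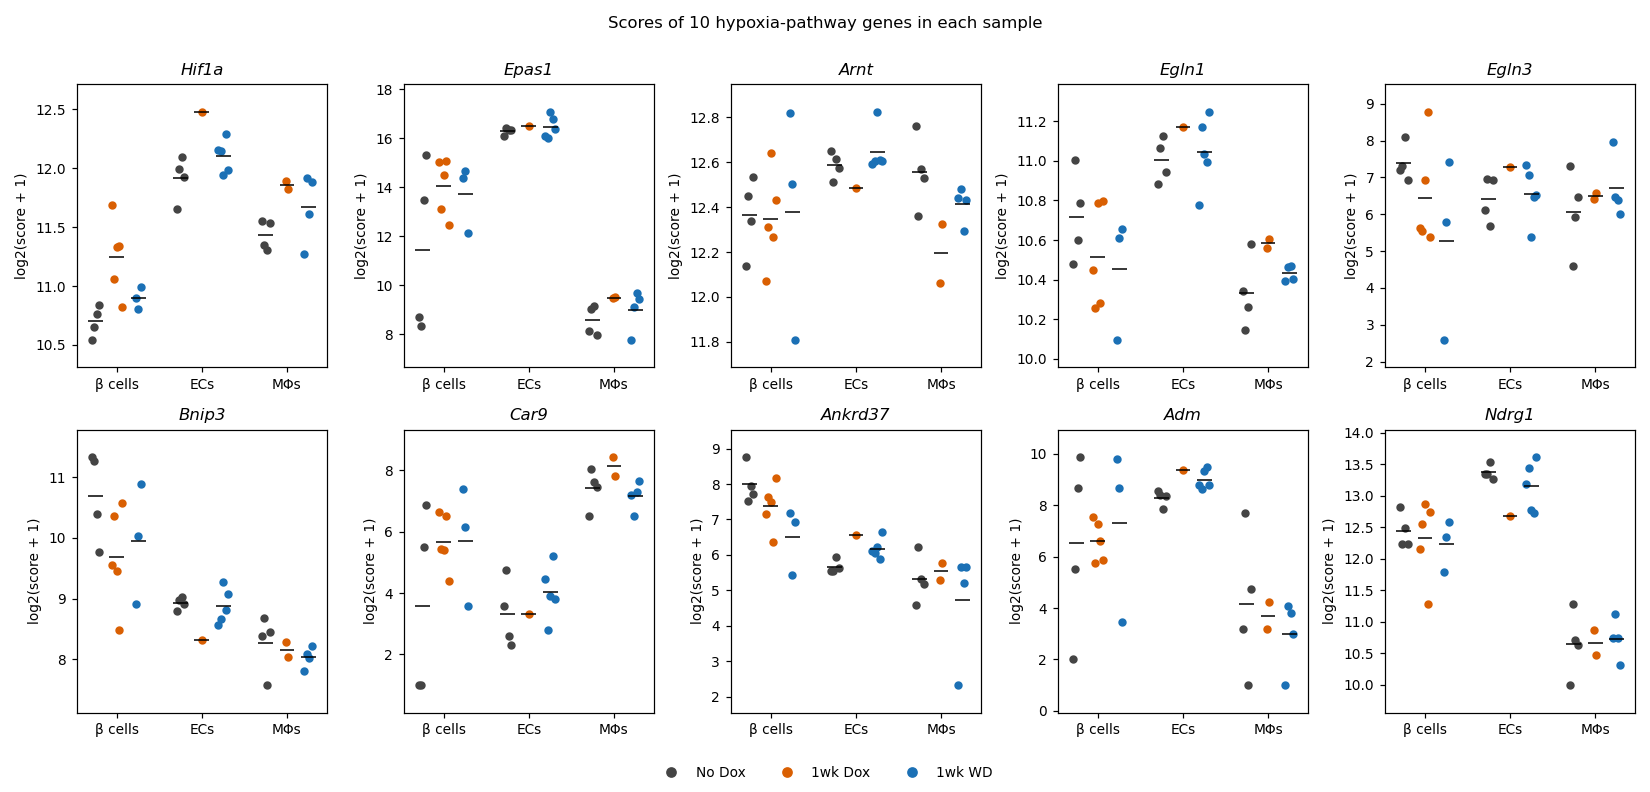
Score of each of the 10 genes in each of the 32 samples, as log2(score + 1) on the vertical axis, by sorted cell type. Points are samples coloured by time point, black lines are group means, and the vertical scale differs between genes. Epas1 was highest in all EC samples, Car9 was higher in all MΦ than in all EC samples, and the β cell samples spread widely for Epas1, Car9, and Adm.

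Among the α subunits, *Epas1* had the widest range. Its scores at No Dox were 70729, 88504, 83779, and 83733 in ECs and 283, 520, 564, and 250 in MΦs, so that every EC sample lay far above every MΦ sample. The difference was 7.74 ± 0.75 (SE) on the log2 scale (adjusted p = 2.29e-06). In No Dox β cells its scores were 415, 320, 11463, and 41132: the first 2 samples sat within the MΦ range, while the last 2 approached ECs without reaching them. The difference of ECs from β cells was 4.85 ± 0.96 (adjusted p = 0.00121), between 3.81 and 6.14 with any 1 β cell sample left out, and that of MΦs from β cells was -2.89 ± 1.13 (adjusted p = 0.0538). The 2 β cell samples with high *Epas1* are those with high stromal and acinar marker sums. Without them the difference of ECs from β cells was 7.80, and that of MΦs from β cells was 0.06 (adjusted p = 0.893). Without the other 2, β cell replicates 1 and 2, these differences were 1.91 (adjusted p = 0.00452) and -5.83 (adjusted p = 1.06e-05), and leaving out β cell replicate 1 or 2 alone also brought the MΦ comparison under the threshold, at -3.81 (adjusted p = 0.0183) and -3.93 (adjusted p = 0.0116).

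*Hif1a* varied far less. Its scores were 1490, 1610, 1741, and 1831 in No Dox β cells, 2995, 2613, 2535, and 2974 in MΦs, and 3226, 4063, 4370, and 3897 in ECs, and the 3 ranges did not overlap. ECs exceeded β cells by 1.22 ± 0.18 (adjusted p = 0.000147), and the smaller differences of MΦs from β cells (0.74 ± 0.21, adjusted p = 0.013) and of ECs from MΦs (0.48 ± 0.14, adjusted p = 0.0122) were under 2-fold. *Arnt*, the shared partner of both α subunits, was level over the islet: its scores were 4512, 5594, 5178, and 5940 in β cells, 6420, 5837, 6275, and 6093 in ECs, and 6943, 5258, 6090, and 5909 in MΦs. Its differences between cell types were at most 0.22 on the log2 scale, with a 95% interval of -0.06 to 0.50 for ECs against β cells.

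The *Hif1a* score was set against the *Epas1* score within each sample, as a log2 ratio. Gene length cancels in a difference of this ratio between samples but not in its level, so that a value of 0 need not mean equal RNA. At No Dox this ratio was 2.87 ± 0.72 (SD, n = 4) in MΦs and -4.40 ± 0.09 (n = 4) in ECs, and the difference of -7.26 had p = 0.0286 in an exact two-sided permutation test, the smallest p that 4 against 4 samples allow. Adjusted over the 10 comparisons made, this p was 0.286. In β cells the ratio was -0.76 ± 3.37 at No Dox (n = 4). It was -2.79 ± 0.89 in the 5 samples of 1wk Dox and -2.82 ± 1.48 in the 3 samples of 1wk WD. The No Dox β cell values ran from -4.49 to 2.33, which spans most of the distance between ECs and MΦs. None of the 7 comparisons between time points had an exact permutation p under 0.278. The smallest p allowed is 0.0667 in the comparisons that include the 2 MΦ samples at 1wk Dox, and 0.00794 to 0.0286 in the others.

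**Figure D2:**
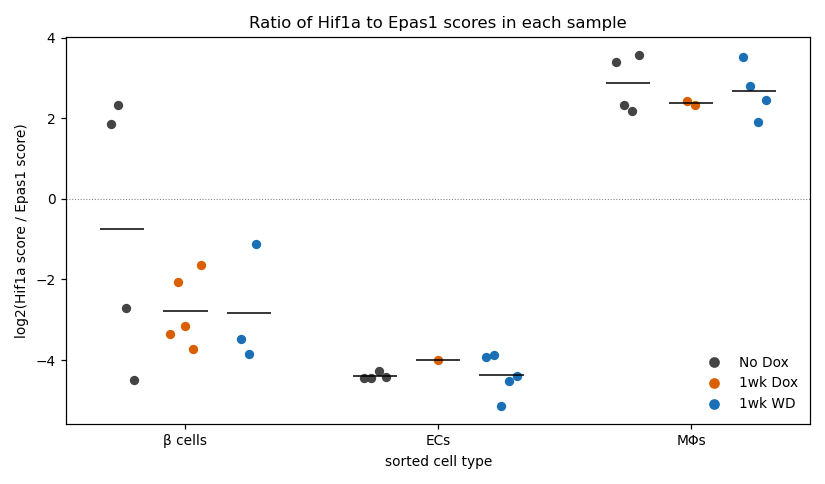
Log2 ratio of the Hif1a score to the Epas1 score in each of the 32 samples, by sorted cell type and time point. Points are samples and black lines are group means. MΦs lay above 0 in all samples, ECs lay at -3.88 or lower, and No Dox β cells ran from -4.49 to 2.33. A ratio of 0 need not mean equal RNA.

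No hydroxylase was called between cell types. *Egln1*, which encodes the main oxygen sensor PHD2, had scores of 1425, 2052, 1552, and 1766 in No Dox β cells, 1887, 2142, 2235, and 1971 in ECs, and 1297, 1130, 1226, and 1528 in MΦs. ECs and MΦs did not overlap, and their difference of 0.67 ± 0.13 (adjusted p = 0.000629) was under 2-fold. *Egln3*, itself a HIF target, had low and scattered scores: 145, 159, 271, and 121 in β cells, 68, 124, 50, and 122 in ECs, and 157, 23, 60, and 87 in MΦs. Its difference of MΦs from β cells was -1.31 ± 0.84 (adjusted p = 0.222), with a 95% interval of -3.14 to 0.52, and -0.82 without MΦ replicate 2.

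Among the targets, *Bnip3* and *Ankrd37* were highest in β cells. *Bnip3*, which directs the removal of mitochondria, had scores of 2574, 2452, 1342, and 869 in No Dox β cells, 445, 501, 522, and 479 in ECs, and 333, 410, 190, and 351 in MΦs. All 4 β cell samples lay above all others. The log2 difference from β cells was -1.76 ± 0.31 in ECs (adjusted p = 0.000527) and -2.41 ± 0.36 in MΦs (adjusted p = 0.000207). ECs exceeded MΦs by 0.65 ± 0.24 (adjusted p = 0.0388), under 2-fold. *Ankrd37* had scores of 434, 182, 247, and 210 in β cells, 46, 46, 60, and 49 in ECs, and 23, 74, 39, and 35 in MΦs. Again every β cell sample lay above the rest, and the difference from β cells was -2.32 ± 0.46 in ECs (adjusted p = 0.00127) and -2.66 ± 0.54 in MΦs (adjusted p = 0.00167). Both genes kept these calls with either pair of β cell samples left out, although the difference of *Bnip3* in ECs then moved from -1.15 without replicates 1 and 2 to -2.37 without replicates 3 and 4.

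*Car9*, *Adm*, and *Ndrg1* each had a different order. *Car9*, a pH-regulating enzyme of the cell surface, had scores of 91, 264, 193, and 176 in No Dox MΦs and 11, 26, 5, and 4 in ECs, which did not overlap (log2 difference of ECs from MΦs -4.10 ± 0.97, adjusted p = 0.00344). In β cells it was listed at 1 in replicates 1 and 2 and reached 44 and 117 in replicates 3 and 4. Its difference of MΦs from β cells, 3.82 ± 1.46, only just passed (adjusted p = 0.0499), and it was 1.22 (adjusted p = 0.491) without β cell replicates 1 and 2 and 6.41 (adjusted p = 0.000905) without replicates 3 and 4. Leaving out any 1 of β cell replicates 1, 2, and 3 or of the 4 MΦ samples also took this call away (adjusted p = 0.0633 to 0.182). ECs and β cells differed by -0.28 ± 1.24 (adjusted p = 0.87), a value that was -2.88 and 2.31 without the first and the last pair of β cell samples, neither past the threshold.

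*Adm* had scores of 373, 336, 231, and 327 in No Dox ECs, and 8, 207, 1, and 26 in MΦs, so that every EC sample lay above every MΦ sample (4.13 ± 1.11, adjusted p = 0.0076). This difference was 5.31 without MΦ replicate 2 and 3.08 without replicate 3, and the call was lost without weights per cell type (adjusted p = 0.0626). In β cells its scores of 3, 45, 406, and 937 spanned both. ECs exceeded β cells by 1.77 ± 1.42 (adjusted p = 0.328), and by 4.53 (adjusted p = 0.0108) without β cell replicates 3 and 4, while the sign turned to -0.98 (adjusted p = 0.584) without replicates 1 and 2. *Ndrg1* had scores of 10403, 10406, 11832, and 9807 in ECs, 7246, 4793, 5705, and 4811 in β cells, and 1019, 2479, 1678, and 1580 in MΦs, 3 ranges without overlap. ECs exceeded MΦs by 2.72 ± 0.19 (adjusted p = 1.04e-07), and the difference of MΦs from β cells was -1.79 ± 0.28 (adjusted p = 0.000264). The EC excess over β cells was 0.93 ± 0.24 (adjusted p = 0.00621), just under 2-fold, and without β cell replicate 1 it was 1.06 and called (adjusted p = 0.0171).

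The second question was whether these genes moved when VEGF-A was induced and withdrawn. None of the 10 was called in any of the 7 comparisons between time points by limma, with an adjusted p under 0.05 alone or with a 2-fold change. In β cells the fit called 0.0122% of the 16346 genes tested at 1wk Dox against No Dox. It called 0% for 1wk WD against No Dox and 0% for 1wk WD against 1wk Dox, and the 3 comparisons had 1142, 1336, and 1032 genes at an unadjusted p under 0.05. In ECs it called 1.76% of 14167 genes between 1wk WD and No Dox, and *Car9* was too low there to be tested. In MΦs it called 2.26% of 15014 genes for 1wk Dox against No Dox. The share was 0.626% for 1wk WD against No Dox and 0.0866% for 1wk WD against 1wk Dox. The median change of the 10 genes in β cells was -0.07 with 1wk Dox and -0.10 after 1wk WD, 0.14 at 1wk WD in ECs (9 genes), and 0.23 at 1wk Dox and -0.03 at 1wk WD in MΦs, against 0.03, 0.06, 0.00, 0.03, and 0.00 over all genes. At an unadjusted p under 0.05 stood *Hif1a* in β cells at 1wk Dox, *Ankrd37* in β cells at 1wk WD, *Adm* in ECs at 1wk WD, and *Hif1a* and *Arnt* in MΦs at 1wk Dox. Over all genes 3106 of 14167 passed that threshold in ECs at 1wk WD and 3200 of 15014 in MΦs at 1wk Dox, so the 1 of 9 and 2 of 10 here were no larger a share.

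**Figure D3:**
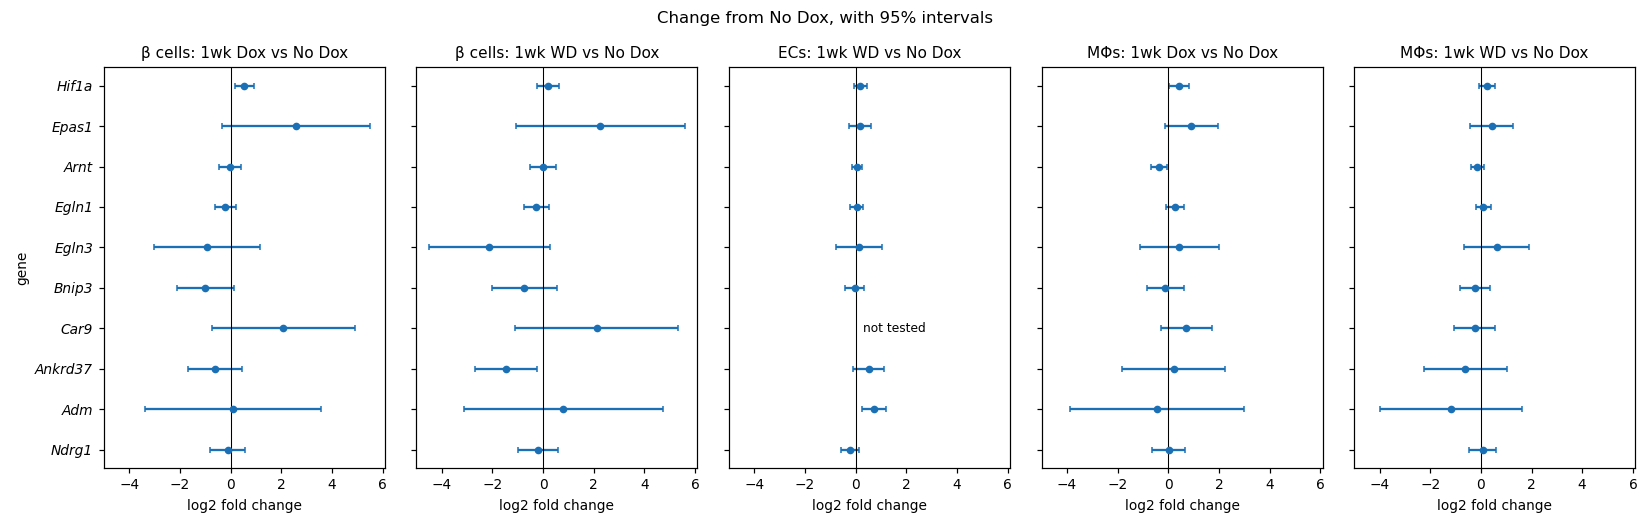
Log2 fold change from No Dox of each of the 10 genes in β cells, ECs, and MΦs, with 95% intervals from the limma fits. Points are estimates on the log2(score + 1) scale. No gene was called, the intervals of Hif1a, Arnt, and Egln1 were the narrowest in β cells, and those of Epas1, Car9, and Adm were the widest there.

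In β cells, *Hif1a* had scores of 3290, 2131, 2577, 2589, and 1804 at 1wk Dox, against 1490 to 1831 at No Dox, so that 4 of 5 samples lay above the No Dox range. The change was 0.55 ± 0.18 (adjusted p = 0.559 by limma). Summed endothelial markers in these 5 samples were 59018, 19858, 28073, 6747, and 1569, against 1709 to 7674 at No Dox, with all 10 markers higher (median 2.19) and 0 called, 3 of them at an unadjusted p under 0.05 by limma. The sample with the highest *Hif1a* also had the highest endothelial sum, and the part of endothelial transcripts was not tested. All 10 acinar markers were lower at 1wk Dox (median -9.26) and 0 were called, although all 10 had an unadjusted p under 0.05 by limma. All 10 pericyte and stromal markers were higher (median 3.90, 0 called, 4 at an unadjusted p under 0.05 by limma), and the part of these lists was not tested either. At 1wk WD its scores of 1905, 1791, and 2035 gave a change of 0.20 ± 0.20 (adjusted p = 0.762). *Ankrd37* had scores of 143, 42, and 122 at 1wk WD, all below the No Dox range of 182 to 434, with a change of -1.48 ± 0.56 (adjusted p = 0.599) that was -0.93 without 1wk WD replicate 2. In the same 3 samples all 10 macrophage markers were higher (median 2.01, 0 called, 4 at an unadjusted p under 0.05 by limma), with sums of 5969 to 8450 against 595 to 5993 at No Dox. The pericyte and stromal markers were also all higher (median 3.72, 0 called, 0 at an unadjusted p under 0.05 by limma), as were all 10 endothelial markers (median 1.06, 0 called, 0 at an unadjusted p under 0.05 by limma). The acinar markers were all lower (median -5.89, 0 called, 1 at an unadjusted p under 0.05 by limma), and the part of these lists was not tested. At 1wk Dox the *Ankrd37* scores of 142, 199, 180, 81, and 289 overlapped its No Dox range (-0.62 ± 0.49, adjusted p = 0.826, and -0.36 without No Dox replicate 1). *Egln3* was also scattered, with scores of 48, 46, 120, 440, and 41 at 1wk Dox, while those at 1wk WD were 5, 54, and 171 (change at 1wk WD -2.12 ± 1.09, adjusted p = 0.614, and -0.78 without 1wk WD replicate 1 or -3.20 without replicate 3). *Arnt* and *Egln1* had narrow intervals, -0.47 to 0.43 and -0.62 to 0.22 at 1wk Dox, which leave little room for a 2-fold change of either gene.

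*Epas1*, *Car9*, *Adm*, and *Bnip3* depended on which No Dox β cell samples served as the reference. *Epas1* had scores of 33663, 8931, 22947, 34245, and 5670 at 1wk Dox. At 1wk WD they were 21227, 25929, and 4452, and all 8 lay within the No Dox range of 320 to 41132. Its changes were 2.58 ± 1.34 (adjusted p = 0.738) and 2.26 ± 1.52 (adjusted p = 0.66). Against No Dox replicates 1 and 2 alone they were 5.52 (adjusted p = 0.00211) and 5.21 (adjusted p = 0.00449), and against replicates 3 and 4 alone -0.37 (adjusted p = 0.97) and -0.69 (adjusted p = 0.972). *Car9* had scores of 99, 42, 41, 90, and 20 at 1wk Dox, and its scores at 1wk WD were 165, 70, and 11. Its changes were 2.08 ± 1.29 and 2.11 ± 1.47, against No Dox replicates 1 and 2 alone 4.67 (adjusted p = 0.0215) and 4.70 (adjusted p = 0.0287), and against replicates 3 and 4 alone -0.51 and -0.48. *Adm* (185, 53, 155, 97, and 58 at 1wk Dox, 899, 409, and 10 at 1wk WD) changed by 0.10 ± 1.58 at 1wk Dox, a value that was 2.85 or -2.66 against the first or the last pair of No Dox samples, neither of which passed (adjusted p = 0.293 and 0.741). *Bnip3* had scores of 754, 1312, 698, 358, and 1521 at 1wk Dox, and 1wk WD samples had 479, 1040, and 1897. Its change at 1wk Dox had a 95% interval of -2.12 to 0.12 (adjusted p = 0.738), and it was -1.61 against the first pair and -0.39 against the last. *Ndrg1* was close to its No Dox level in either fit (-0.12 ± 0.31 at 1wk Dox).

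The values of these genes in the 12 β cell samples were compared with the marker sums, over 20 relations. No Dox replicates 1 and 2 stood apart from the rest in the stromal sum, so that correlations were taken over the other 10 samples, on the log2 scale. *Epas1* rose with the sum of the pericyte and stromal markers (r = 0.938, rho = 0.939, permutation p adjusted over the 20 relations 0.0006 and 0.0058), and r was 0.965 without the 2 samples farthest from the median sum. *Car9* did so too (r = 0.919, rho = 0.879, adjusted permutation p = 0.0011 and 0.0105), with r = 0.782 in the 8 samples. *Bnip3* moved the other way (r = -0.768, rho = -0.77, adjusted permutation p = 0.0206 and 0.0417), with r = -0.644 in the 8 samples. For *Adm*, r was 0.777 (adjusted permutation p = 0.0206) but rho was 0.673 (adjusted permutation p = 0.0861), and r was 0.341 in the 8 samples, so that the relation rested on the 2 left out.

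With the sum of the β cell markers, *Bnip3* had r = 0.855 and rho = 0.891 (adjusted permutation p = 0.00584 and 0.0105), and r = 0.76 in 8 samples. These 8 left out 1wk Dox replicate 4 and 1wk WD replicate 3, while those for the stromal sum left out 1wk Dox replicate 5 and 1wk WD replicate 3. *Epas1* and *Car9* had r = -0.837 and r = -0.9 with the β cell sum (rho = -0.794 and -0.818, adjusted permutation p at most 0.0352), and r = -0.713 and -0.861 in its 8 samples. *Adm* had r = -0.777 (adjusted permutation p = 0.0206) and r = -0.887 in the 8 samples, but its rho of -0.624 over the 10 did not pass (0.122). *Ndrg1* passed by rho alone, at -0.745 with the stromal and 0.758 with the β cell sum (adjusted permutation p = 0.0455 and 0.0425). *Hif1a*, *Arnt*, *Egln1*, *Egln3*, and *Ankrd37* passed with neither sum. The 10 samples span the 3 time points, no time point holds 6 samples, and no correlation within a time point is given. The part of the stromal and β cell transcripts in the time course of these genes was not tested.

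**Figure D4:**
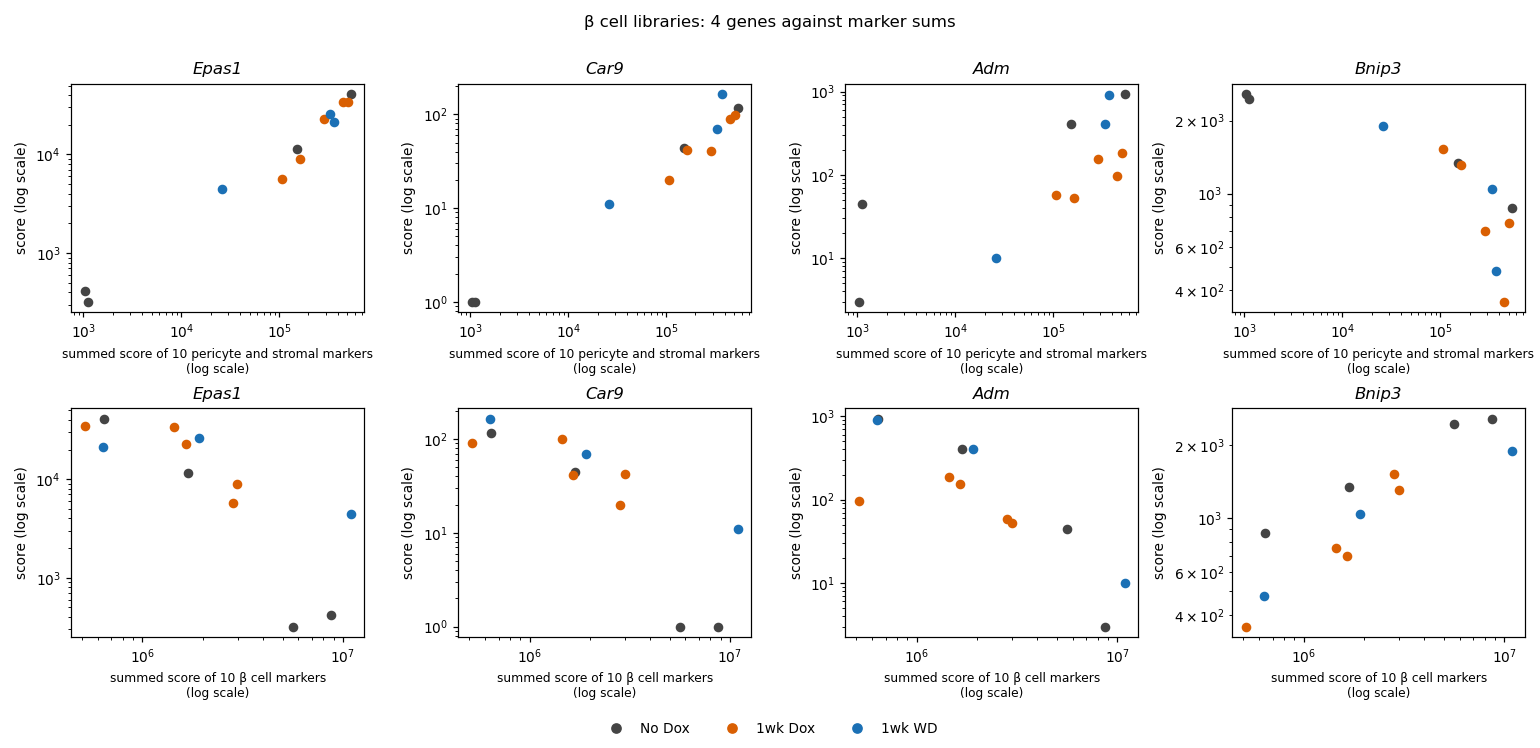
Scores of Epas1, Car9, Adm, and Bnip3 in the 12 β cell samples against the summed score of 10 pericyte and stromal markers (upper row) and of 10 β cell markers (lower row), all on log scales and coloured by time point. Epas1 and Car9 rose along the stromal sum and Bnip3 fell, and No Dox replicates 1 and 2 lie alone at stromal sums of 1031 and 1125.

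In ECs, whose samples were more alike than those of β cells (median residual SD 0.282 against 0.61 on the log2 scale), 9 genes were tested between 1wk WD and No Dox. *Adm* had scores of 436, 390, 639, 719, and 441 at 1wk WD, all above the No Dox range of 231 to 373. The change was 0.71 ± 0.22, or 1.63-fold, and did not pass the correction (adjusted p = 0.0936 by limma, 0.0626 to 0.258 over the alternatives). Markers moved in the same samples too. The summed endothelial markers were 421682 to 484273 at 1wk WD, all below the 568226 to 605022 of No Dox. Of the 10, 7 were lower and 3 higher (median -0.24). None was called, and 2 of the lower stood at an adjusted p under 0.05 by limma. The summed pericyte and stromal markers were 16858 to 70818 at 1wk WD, all above the 5637 to 12607 of No Dox, with 9 of the 9 tested higher (median 1.76) and 4 called. The acinar markers were all 10 called lower (median -6.73), from sums of 70219 to 1924863 to sums of 726 to 71133, and the part of these lists in the EC values was not tested. *Ankrd37*, with scores of 68, 65, 73, 58, and 100 at 1wk WD against 46 to 60 at No Dox, changed by 0.51 ± 0.29 (adjusted p = 0.313). *Epas1* stayed high, with scores of 69820, 66389, 138876, 114461, and 84935 around the No Dox range of 70729 to 88504 and a change of 0.16 ± 0.20 (adjusted p = 0.659), or 0.0093 without 1wk WD replicate 3. *Hif1a* (4560, 4516, 3926, 5019, and 4058) changed by 0.19 ± 0.11, and *Ndrg1* (9290, 11130, 6998, 6798, and 12522) by -0.22 ± 0.17. The 95% intervals of *Hif1a*, *Epas1*, *Arnt*, *Egln1*, *Bnip3*, and *Ndrg1* lay between -0.59 and 0.59, short of a 2-fold change in either direction.

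ECs at 1wk Dox were represented by 1 sample without a replicate, and its differences were not tested. Of the 9 genes above the expression minimum, 9 lay outside the No Dox range in this sample, as did 62.1% of all genes, and 1 differed by 2-fold from the No Dox mean, against 10.7% of all genes. That gene was *Adm*, at 652 against 231 to 373 (log2 difference 1.06). *Ankrd37* stood at 94 against 46 to 60 (0.90), *Egln3* at 156 against 50 to 124 (0.87), and *Hif1a* at 5704 against 3226 to 4370 (0.56), all above the No Dox range. *Ndrg1* stood at 6577 against 9807 to 11832 (-0.69) and *Bnip3* at 320 against 445 to 522 (-0.60), both below it. *Epas1* (91947) and *Egln1* (2301) lay just above and *Arnt* (5737) just below their ranges. The sample also differed from the No Dox ECs in its sum of acinar markers, 207 against 70219 to 1924863, and of dissociation and stress genes, 77613 against 112874 to 135763. Its sums of pericyte and stromal markers (14469 against 5637 to 12607) and of endothelial markers (676408 against 568226 to 605022) were higher. The part of these lists was not tested.

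In MΦs, the 1wk Dox samples differed from No Dox in other markers as well. All 10 acinar markers were lower (median -8.55), 5 of them called, with sums of 1114 and 3780 against 30162 to 12715607. Of 10 endothelial markers 9 were higher (median 1.72, 0 called, 4 at an unadjusted p under 0.05 by limma), with sums of 4408 and 3512 against 1858 to 2436, and 2 of 10 macrophage markers were called higher. At 1wk WD all 10 acinar markers were lower (median -6.64, 0 called, all 10 at an unadjusted p under 0.05 by limma) and all 10 pericyte and stromal markers higher (median 1.05, 0 called, 5 at an unadjusted p under 0.05 by limma). Their part in the MΦ results was not tested. The 2 samples at 1wk Dox had *Hif1a* scores of 3790 and 3614, above the No Dox range of 2535 to 2995. The change was 0.42 ± 0.18 (adjusted p = 0.209 by limma). At 1wk WD *Hif1a* was at 2472, 3858, 3118, and 3782 (0.23 ± 0.15, adjusted p = 0.442). *Arnt* moved the other way at 1wk Dox, with scores of 4270 and 5137 below the No Dox range of 5258 to 6943 (-0.36 ± 0.15, adjusted p = 0.175). This change was -0.23 without 1wk Dox replicate 4 and -0.50 without replicate 5. *Epas1* had scores of 705 and 726 at 1wk Dox against 250 to 564 at No Dox (0.91 ± 0.48, adjusted p = 0.304), and *Car9* had 344 and 224 against 91 to 264 (0.71 ± 0.46, adjusted p = 0.414, and 0.40 to 1.02 with 1 sample left out). At 1wk WD, *Car9* was at 144, 91, 154, and 201, within the No Dox range, and *Epas1* overlapped No Dox too (0.43 ± 0.39, adjusted p = 0.602). *Adm* scored 18 or lower in all 6 MΦ samples at 1wk Dox and 1wk WD, and 8, 207, 1, and 26 at No Dox, so that 1 sample, No Dox replicate 2, stood apart (change at 1wk WD -1.18 ± 1.29, adjusted p = 0.667). Without that sample *Adm* fell below the minimum mean score and had no value, and without No Dox replicate 3 its change was -2.23. Of *Bnip3*, *Ndrg1*, *Egln1*, *Egln3*, and *Ankrd37*, the estimates in the comparisons with No Dox lay between -0.61 (*Ankrd37* at 1wk WD, adjusted p = 0.713) and 0.63 (*Egln3* at 1wk WD, adjusted p = 0.61). Several of these values rested on single samples. Without 1wk WD replicate 1 the changes at 1wk WD were 0.84 for *Epas1*, -0.52 for *Adm*, 0.21 for *Egln3*, and 0.19 for *Ankrd37*, and without No Dox replicate 2 that of *Egln3* was 0.14.

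Whether a response differed between cell types was tested directly in a limma fit of the 3 cell types without the single 1wk Dox EC sample. No gene of the 10 was called for the 1wk WD response of ECs against MΦs, where 2.73% of 16951 genes were called, nor for that of β cells against ECs (0.112%) or against MΦs (0.0177%), nor for the 1wk Dox response of β cells against MΦs (0.0413%). At an unadjusted p under 0.05 stood 2 of the 40 values, no larger a share than the 1273 to 3445 of 16951 genes that passed it in each of the 4 comparisons. The 1wk WD response of *Egln3* in β cells less that in MΦs was -2.75 ± 1.26 (adjusted p = 0.513), or -1.41 without β cell 1wk WD replicate 1 and -3.83 without replicate 3. That of *Ankrd37* in β cells less that in ECs was -1.99 ± 0.93 (adjusted p = 0.366).

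Of 12 further HIF subunits, hydroxylases, and parts of the VHL complex, 0 were called higher and 3 lower in ECs than in β cells, 2 higher and 2 lower in MΦs than in β cells, and 1 higher and 3 lower in ECs than in MΦs. Among all genes, the shares called higher and lower were 17.1% and 20.9%, 18.4% and 20.4%, and 18% and 19.3% in these 3 comparisons. *Arnt2*, an ARNT relative best known from neurons, had scores of 261 to 632 in No Dox β cells and 1 to 6 in ECs (-7.18 ± 1.32, adjusted p = 0.000738). *Vhl*, the recognition subunit of the ubiquitin ligase, was higher in MΦs than in β cells by 1.20 ± 0.30 (adjusted p = 0.00642). None of the 12 was called between time points.

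Of 21 hypoxia-induced metabolic enzymes and transporters, 6 were higher and 4 lower in ECs than in β cells, 8 higher and 1 lower in MΦs than in β cells, and 1 higher and 4 lower in ECs than in MΦs. The shares of all genes called were 17.1% and 20.9%, 18.4% and 20.4%, and 18% and 19.3%. The glucose transporter *Slc2a1* had scores of 240 to 488 in β cells, 1394 to 1650 in ECs, and 1051 to 1661 in MΦs, and hexokinase 2 (*Hk2*) reached 5362 to 9081 in MΦs against 8 to 937 in β cells and 9 to 20 in ECs. In MΦs at 1wk Dox, 3 of the 20 tested were called higher, in a comparison that called 2.26% of all genes and in which the acinar and endothelial markers moved as given above. Of the 20, 11 were higher and 9 lower (median 0.38), and 14 stood at an unadjusted p under 0.05 by limma. The lipid droplet gene *Hilpda* rose from 187 to 266 at No Dox to 588 and 976 (1.73 ± 0.40, adjusted p = 0.0314). The glycolytic enzymes *Eno1* (1.18 ± 0.24, adjusted p = 0.02) and *Gapdh* (1.04 ± 0.19, adjusted p = 0.0115) rose too, and their processed pseudogenes make the assignment of reads to them uncertain. None of the list was called in β cells or ECs over time, where the medians were 0.26 at 1wk Dox in β cells and -0.11 at 1wk WD in ECs, against 0.03 and 0.00 over all genes. For the 1wk WD response of ECs less that of MΦs, 2 of the 21 were called, both lower, beside 2.73% of all genes. Of the 21, 17 were lower and 4 higher (median -0.19).

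Of 28 other hypoxia-induced genes, 8 were higher and 8 lower in ECs than in β cells, 6 higher and 6 lower in MΦs than in β cells, and 5 higher and 4 lower in ECs than in MΦs, again beside 17.1% and 20.9%, 18.4% and 20.4%, and 18% and 19.3% of all genes. Endogenous *Vegfa*, the angiogenic factor, was highest in β cells (3127 to 10072, against 191 to 281 in ECs and 288 to 872 in MΦs), and endothelin-1 (*Edn1*) was at 563 to 1001 in ECs and listed at 1 in all 4 No Dox β cell samples. The heme-degrading enzyme *Hmox1*, which also answers to oxidative stress and heme, rose in MΦs from 2466 to 3422 at No Dox to 11589 and 15859 at 1wk Dox (2.23 ± 0.21, adjusted p = 0.000805). By 1wk WD it was at 4163 to 6101, a difference from 1wk Dox of -1.37 ± 0.21 (adjusted p = 0.0359). Of the 27 genes of this list tested in MΦs at 1wk Dox against No Dox, 11 were higher and 16 lower (median -0.12), with 1 called. None of the 28 was called in β cells or ECs over time.

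Of 6 genes of the adrenomedullin receptor and peptide processing, 3 were higher and 2 lower in ECs than in β cells, 2 higher and 1 lower in MΦs than in β cells, and 4 higher and 1 lower in ECs than in MΦs, on a list too short to set closely against the same shares of all genes (17.1% and 20.9%, 18.4% and 20.4%, and 18% and 19.3%). The receptor *Calcrl* had scores of 36334 to 43733 in No Dox ECs, 1779 to 3294 in MΦs, and 59 to 749 in β cells, and its partner *Ramp2* followed the same preference for ECs (4392 to 6306). Another partner, *Ramp3*, fell in ECs from 2230 to 2895 at No Dox to 693 to 1533 at 1wk WD (-1.18 ± 0.22, adjusted p = 0.0144), the only gene of these 4 lists called in ECs.

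The genes whose scores were most like each of the 10 were found by Pearson's r of log2(score + 1) over all 32 samples, among 16968 genes whose mean score reached 20 in a group. *Epas1* was closest to *Timp3* (r = 0.987), *Plat* (0.985), and *Ehd2* (0.984), *Hif1a* to *Cd93* (0.942), *Sh3glb1* (0.933), and *Ehd4* (0.932), and *Adm* to *Ebf4* (0.938), *Cxcl12* (0.93), and *Thsd7a* (0.916). *Car9* was closest to *Zeb2* (0.952), *Axl* (0.95), and *Pla2g4a* (0.941), *Ndrg1* to *Etl4* (0.956), *Cyb561* (0.954), and *Mcf2l* (0.951), and *Bnip3* to *Nbr1* (0.937), *Pdxdc1* (0.935), and *Clpx* (0.931). *Ankrd37* was closest to *1700040L02Rik* (0.874), *Fam169a* (0.86), and *Mfap3l* (0.858), and *Egln1* to *Nanos2* (0.848), *Oxr1* (0.837), and *Sigirr* (0.837). *Arnt* (at most 0.769, with *1500001M20Rik*) and *Egln3* (at most 0.669, with *Mtif3*) had no close counterpart. The samples span 3 cell types and share libraries, and no value was taken within a cell type.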

How the data were processed

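RNA from sorted cells was amplified with the NuGEN Ovation kit, sequenced on an Illumina HiSeq2500, and aligned to mm9 with TopHat2 2.0. The deposited table holds scores, TMM-normalized expression that the authors computed in Avadis NGS, here as whole numbers with a minimum of 1. Amplification can distort levels, and neither read counts nor depth can be had from scores. 6 columns match no sample here and were not used, and which samples they hold is not known. The EC and MΦ groups at 1wk Dox are smaller here than the study describes.

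limma 3.58.1 (R 4.3.3, with a trend) was fitted to log2(score + 1) of genes whose mean score reached 20 in a group fitted. All time points of β cells or of MΦs shared a fit, ECs were fitted without the single 1wk Dox sample, and fits across cell types used weights per cell type. A call needed a 2-fold change and a Benjamini-Hochberg adjusted p under 0.05 over all genes tested, and adjusted p alone for differences between responses. This scale understates the fold changes of low genes. The fits were tested on simulated data. Ratios were compared by exact two-sided permutation tests, and correlations by 100000 permutations. RefSeq promoters were those of GRCm38.p6. Python 3.11.15, numpy 2.4.6, pandas 2.3.3, scipy 1.17.1, and matplotlib 3.10.9 were used.

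The 10 genes, the gene lists, and the tests were chosen with earlier results of these data known. Other genes were named if called or among the 4 largest differences of a list, with a selection of these printed, or as the 3 most correlated with each of the 10. The settings varied were the pseudocount (0.1 and 20), the filter (none, or a minimum mean of 200), median-of-ratios and quantile scaling, no trend, no weights, only the 2 groups compared, adjusted p alone, a replicate block, the 1wk Dox EC sample added, and leaving out single replicates or pairs of No Dox β cell samples. Leaving out those pairs between cell types, the acinar-rich samples, and single No Dox ECs beside the 1wk Dox sample was chosen after seeing the data.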

Additional observations from a re-analysis of the deposited data

Results flagged for a closer look

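Among the 10 genes, 2 samples stood far from the others of their group: their distance to the nearest sample, as a share of the group's range on the log2 scale, was above the 95% critical value of Dixon's test. *Arnt* in 1wk WD EC replicate 3 scored 7257, against 6171 to 6256 in the other 4 samples (share 0.916). *Ankrd37* in 1wk WD MΦ replicate 1 scored 4, against 36 to 50 in the other 3 (share 0.862). This was out of 60 groups of 4 or 5 samples tested, where chance gives about 1 in 20.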

How the results depend on the processing

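No gene of the 10 was called between time points under any alternative, with 1 exception. With No Dox β cell replicates 3 and 4 both left out, 2 genes, *Epas1* and *Car9*, were called in each comparison with No Dox, at 1wk Dox and 1wk WD, while 1199 and 1424 genes of the whole table were called, against 2 and 0 with all samples. Leaving out single replicates left 0 genes called in each of the 7 comparisons between time points, 0 in the 4 comparisons of responses, 4 to 5 for ECs against β cells, 3 to 4 for MΦs against β cells, and 4 for ECs against MΦs. A minimum mean score of 200 left some of the 10 genes, such as *Car9* between cell types at No Dox, without a value. Genes that were not called and changed sign under an alternative were not counted as changed.

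Beyond the values given with the results, *Car9* in MΦs against β cells lost its call with a pseudocount of 0.1 (adjusted p = 0.0518), no filter (0.0942), median-of-ratios scaling (0.0524), no trend (0.0567), and the replicate block (0.0766). *Epas1* in the same comparison gained one with a pseudocount of 20 (0.045). With β cell replicates 1 and 2 left out, *Ndrg1* in ECs against β cells (1.01, adjusted p = 0.0128; 1.06 without replicate 1 alone) and *Adm* in MΦs against β cells (-5.11, adjusted p = 0.018) were called. With the acinar-rich samples left out, *Adm* was called in ECs against β cells (4.49, adjusted p = 0.00468), and the genes called were 5 for ECs against β cells, 4 for MΦs against β cells, and 4 for ECs against MΦs. Quantile scaling moved the median of all genes in ECs against β cells from -0.07 to 0.16. The cause of these shifts was not tested.

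Deviations of same-numbered samples of a cell type at different time points correlated at -0.486 to 0.352, so that replicate numbers were not taken as pairs over time. Such correlations were not taken between cell types. Whether same-numbered samples of different cell types came from the same islets is not known, and the fits across cell types treated them as independent. With the replicate block, 0 of the 10 genes were called between time points, and the block changed no other call than that of *Car9*. The differences of the single 1wk Dox EC sample moved by less than 1 SD of No Dox under median-of-ratios scaling. They also did so with single No Dox samples left out, but that check could not have come out otherwise. Leaving out 1 sample cannot shift the No Dox mean by as much as 1 SD, so it says nothing about stability. Scores without reads limit what low values can show, chiefly for *Car9* and *Adm*, and 1 or 2 samples a group at 1wk Dox limit ECs and MΦs.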
